A study of Gallus gallus with 4 samples.

Results

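*PIWIL1*, a gene of the germline piRNA pathway, was examined as 1 gene among the 1999 gene loci used here. It was taken by its Ensembl identifier, ENSGALG00000002645, and its locus was read on chromosome 15 of the chicken assembly galGal5, from 3348420 to 3365605, a length of 17186 bp. Around it, 500 kb on each side were examined as well, and lower and upper, or below and above, refer to smaller and larger positions on the chromosome. The study profiled trimethylated lysine 9 of histone H3 (H3K9me3) by chromatin immunoprecipitation and sequencing in cultured primordial germ cells of the chicken (cPGCs) and in chicken embryonic stem cells (ESCs), which were both kept in vitro and stand for the germ cells and the somatic cells of the early embryo. Each cell type is represented by 1 immunoprecipitated and 1 input library, 4 libraries in all, with no treatment named. The strain, sex and passage of these cultures are not given in the sources used here. The authors joined enriched windows of 300 bp into domains, and the positions of these domains, 47621 on 30 autosomes, are the values analysed here. They carry no read count, height or score, so the depth behind each list is unknown, and expression, including that of cell type markers, was not used here. With 1 list per cell type there is no replicate error, and differences between cPGCs and ESCs are given with no p-value. Sequencing depth and the yield of the immunoprecipitation can also change how many domains a list holds.

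PIWI proteins are the germline branch of the Argonaute family. They bind piRNAs, small RNAs that are matched largely to transposons, and use them as guides to cleave transposon transcripts or, in some species, to direct silencing of the transposons' own chromatin. H3K9me3 is a mark of heterochromatin that is read by HP1 proteins and is found over repeats and over many genes that are not transcribed in a given cell type. *PIWIL1*, known in chicken also as *CIWI*, encodes a PIWI protein whose expression is a common marker of germ cells.

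In ESCs 1 domain lay over *PIWIL1*, and in cPGCs none did. The ESC domain extended from 3350401 to 3365400, a width of 15000 bp or 50 windows, and covered 87.3% of the locus. In cPGCs 0 of the 17186 bases were in a domain. The ESC domain lay wholly inside the locus. Its lower edge was 1981 bp inside the lower end and its upper edge was 205 bp inside the upper end. The 2186 bases without a domain were almost all at the lower end, where the first 1000 bp of the locus held no ESC domain base, against 79.5% of the last 1000 bp. The listed locus includes 500 bp upstream of the transcription start. The strand of the gene was not read from the sources used here, so neither end is called the promoter. Trimming 500 bp from both ends gave a coverage of 90.9% in ESCs, and adding 5000 bp to both ends gave 55.2%, with 0% in cPGCs in both cases.

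**Figure D1:**
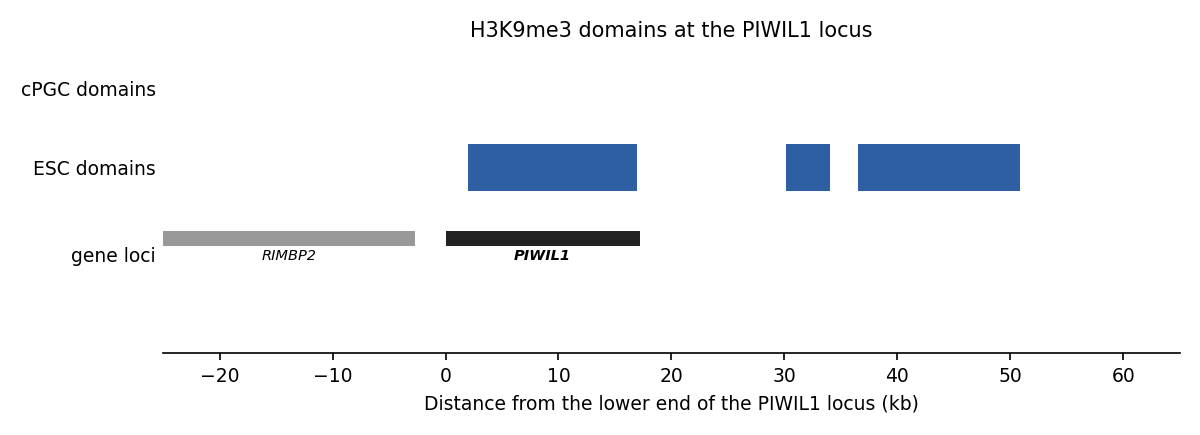
Domains of cPGCs (upper row, empty here) and ESCs (blue bars, middle row) and gene loci (lower row) against the distance from the lower end of the *PIWIL1* locus in kb. The ESC domain of 15000 bp starts 1981 bp inside the locus and ends 205 bp before its upper end, and no cPGC domain falls in the stretch drawn.

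Loci with the values of *PIWIL1* were counted for each cell type and for both. The 1999 loci open the study's gene table, in order of Ensembl identifier, and are no random sample of it. Its other genes were not analysed here, so every share of loci holds for these only. A locus without any cPGC domain was common, with 71.1% of the 1999 loci and 85.4% of the 89 loci on chromosome 15. Coverage of at least 75% in ESCs was found for 8.10% of all loci (162 genes). Both conditions in a looser form, at least 75% in ESCs and at most 10% in cPGCs, were met by 40 of the 1999 loci, or 2.0%. On chromosome 15 1 locus of 89 met it, which was *PIWIL1*, and the share there, 1.12%, was the same for coverage of at least 75% in ESCs alone. The annotation used holds part of the genes of the chromosome, so this count covers those 89 loci only. Of these, 22 had an ESC domain, with a median coverage of 16.0%, and 13 had a cPGC domain. After *PIWIL1*, the next loci of chromosome 15 by coverage in ESCs were *PGAM5*, at 60% in both cell types, and *FBRSL1*, at 45.0% in ESCs and 0% in cPGCs. These 2 genes were named after their values were seen. The position of *PIWIL1* among all loci is drawn in the plot of coverage in ESCs against coverage in cPGCs.

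**Figure D2:**
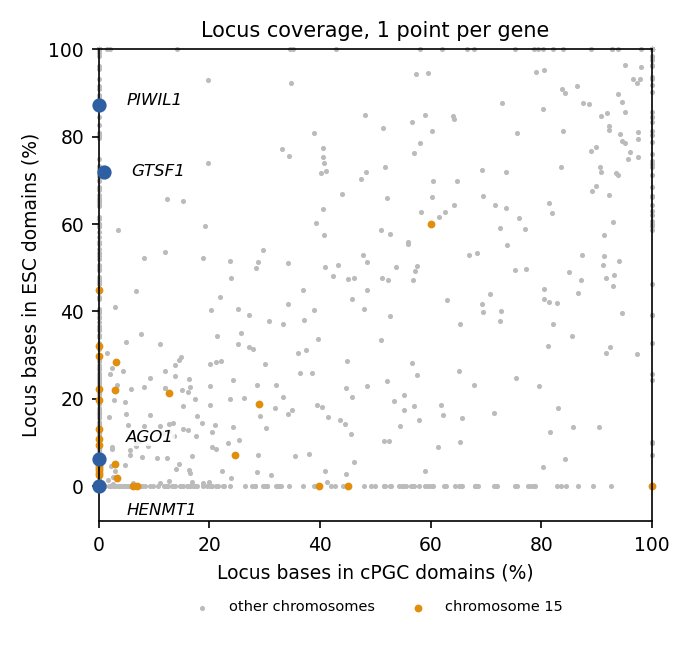
Share of locus bases in cPGC domains (x axis, %) and in ESC domains (y axis, %) for 1999 loci, with the loci of chromosome 15 in orange and *PIWIL1*, *GTSF1*, *AGO1* and *HENMT1* in blue. *PIWIL1* sits on the left axis at 87.3%, above every other locus of chromosome 15, and *GTSF1* sits close by at 0.885% and 71.9%.

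The width of the *PIWIL1* domain was in the upper range for ESCs. On chromosome 15, 34 of the 263 ESC domains were wider, the widest spanning 55800 bp, and the median width was 6000 bp. Over all chromosomes 14.5% of the ESC domains were at least as wide, with a median of 6300 bp. A domain that lay wholly inside a locus and covered at least 75% of it was uncommon among genes of this size, in a comparison chosen after seeing the *PIWIL1* domain. Among the 1105 loci of at least 10 kb, 61 reached a coverage of 75% in ESCs, and for 8 of them, including *PIWIL1*, the coverage came from 1 domain contained in the locus. In 7 of these 8 loci a cPGC domain overlapped the gene as well, and *PIWIL1* was the exception.

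The absence of a cPGC domain extended far beyond the gene. The nearest cPGC domain below the locus was a narrow one of 2400 bp that ended at 2842800, 505619 bp away. Above the locus the nearest was 10200 bp wide and began at 3565201, 199595 bp away. The stretch between them, from 2842801 to 3565200, was 722400 bp long and held no cPGC domain. It was the longest of the 154 distances between neighbouring cPGC domains on chromosome 15, ahead of 531000 bp, where the median was 14250 bp. Over all chromosomes it was the 9th longest of 23101, and the longest spanned 1052700 bp. The stretch was taken because it holds *PIWIL1*, and a long stretch is more likely to hold a given locus. Its rank and the median thus do not measure how unusual it is. It held 5 of the 89 loci on chromosome 15, *PIWIL1* included. The narrow domain at its lower end set its length: with domains under 3000 bp left out, the stretch measured 817800 bp.

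The cPGC-free stretch was not empty in ESCs. It held 10 ESC domains with 74400 bp, or 10.3% of its bases, against 16.9% of chromosome 15. Among the 9 cPGC-free stretches of this length or longer in the genome, coverage in ESCs ranged from 4.76% to 19.9%. The *PIWIL1* domain was the widest of the 10, whose widths began at 2100 bp with a median of 5550 bp, and it held 20.2% of the ESC domain bases of the stretch. A domain of nearly the same width, 14400 bp, lay 19295 bp above the locus (3384901 to 3399300), and a smaller one of 3900 bp lay 12995 bp above it (3378601 to 3382500). These 3 domains followed one another from *PIWIL1* up to 3399300. From the *PIWIL1* domain the next ESC domain was 110700 bp away below and 13200 bp away above. The median distance between neighbouring ESC domains on chromosome 15 was 14550 bp, so the spacing above was close to the median. Farther up, domains of 2100 bp and 12000 bp (3498301 to 3500400 and 3502801 to 3514800) closed the series before the first cPGC domain.

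The *PIWIL1* domain was 199800 bp away from the nearest cPGC domain. Of the 24490 ESC domains on chromosomes with cPGC domains, 65.7% overlapped a cPGC domain, and those that did not were 19200 bp away in the median. At least as far as the *PIWIL1* domain were 171 ESC domains, or 0.698%. Among the 3539 ESC domains that were at least as wide, 14 were as far or farther, a share of 0.396%, *PIWIL1* included. On chromosome 15 separation of this size was less rare. There 57.4% of the ESC domains overlapped a cPGC domain, those without overlap were 47400 bp away in the median, and 11 of 263, or 4.18%, were at least as far. Of these 11, 5 lay in the cPGC-free stretch around *PIWIL1*, its own domain included, and 6 elsewhere on the chromosome. Of the 40 loci with at least 75% in ESCs and at most 10% in cPGCs, 2 overlapped a cPGC domain. *PIWIL1* lay farthest from one, with a median of 23.2 kb over the 40. It was the 2nd longest of them, with a median length of 4221 bp. Without the limit on coverage, 27 of the 1999 loci, or 1.35%, lay at least as far as the *PIWIL1* locus, and 6 of the 89 on chromosome 15. These 6 include *PIWIL1* itself and its neighbours *RAN*, *ADGRD1* and *RIMBP2*, which lie in the same cPGC-free stretch. The distance is thus shared by neighbouring loci and is not particular to *PIWIL1*.

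**Figure D3:**
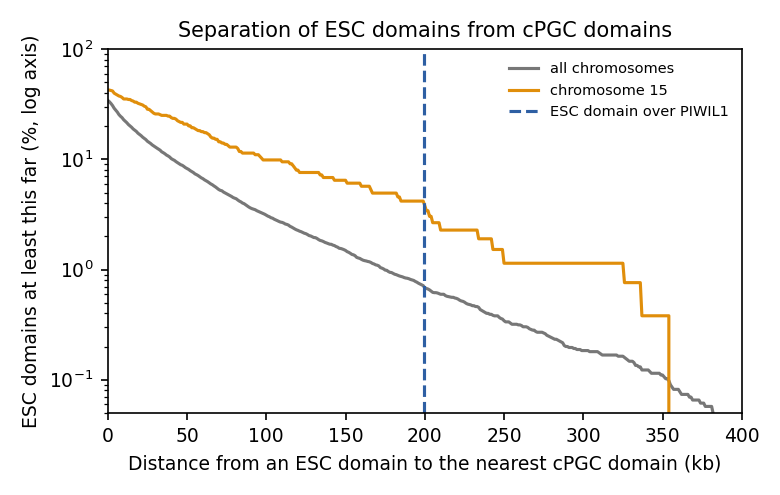
Share of ESC domains (y axis, %, log scale) at least as far from the nearest cPGC domain as the distance on the x axis (kb), for all chromosomes (grey) and chromosome 15 (orange). The dashed line marks the *PIWIL1* domain at 199.8 kb, where 0.698% of all ESC domains and 4.18% of those on chromosome 15 are as far or farther.

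In the locus with 500 kb on each side, 19 ESC domains covered 12.0% of the bases and 8 cPGC domains covered 5.75%. On chromosome 15 as a whole the shares were close to each other, 16.9% in ESCs and 17.5% in cPGCs, and on all chromosomes they were 22.5% and 34.2%. All 8 cPGC domains lay above the locus. In the 500 kb below it, coverage was 5.40% in ESCs and 0% in cPGCs, and in the 500 kb above it 16.0% and 11.7%. Only 3 ESC domains and 3 cPGC domains of the window overlapped each other, over 15000 bp, all above the locus. The other 16 ESC domains and 5 cPGC domains had no counterpart. The *PIWIL1* domain was the 2nd widest ESC domain of the window, after one of 23400 bp at *TMEM132C*, and the median was 3900 bp. Widths of the cPGC domains ran from 900 to 18300 bp.

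**Figure D4:**
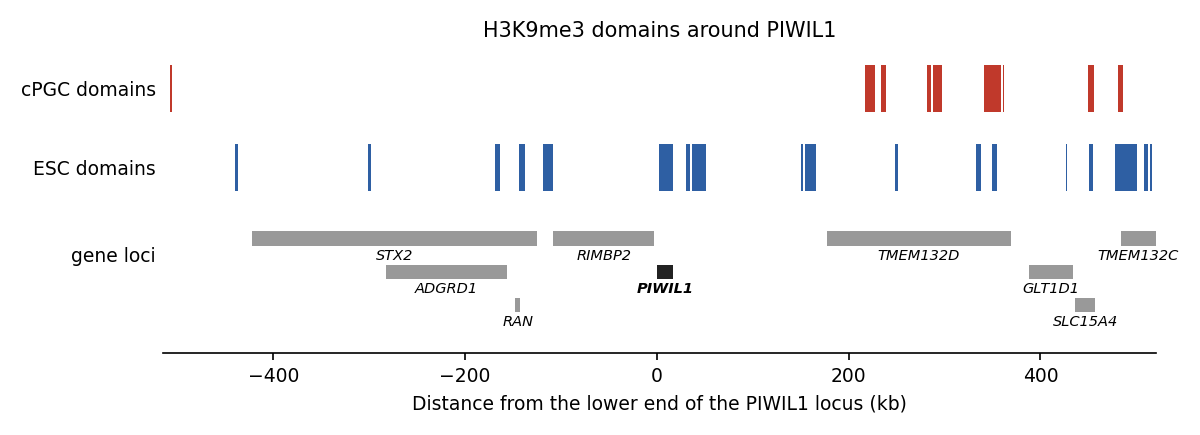
Domains of cPGCs (red) and ESCs (blue) and gene loci (grey, *PIWIL1* in black) against the distance from the lower end of the *PIWIL1* locus in kb, with the cPGC domain that bounds the free stretch at the far left. ESC domains are spread over the whole window, whereas the 8 cPGC domains of the window lie above *PIWIL1*, from 199595 bp beyond the locus onwards.

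Low coverage in cPGCs was shared by much of the chromosome. When chromosome 15 was divided into 11 windows of the same length, counted from this one, 5 other windows had lower coverage in cPGCs. Coverage in the other 10 windows ranged from 3.04% to 59.4% in cPGCs and from 4.72% to 47.5% in ESCs. Coverage was higher in ESCs in 7 of the 11 windows. Near the gene, with the *PIWIL1* domain included, the contrast was larger than in the wide window. That domain held 15000 of the 33300 ESC domain bases within 50 kb, and the same within 100 kb. It therefore adds to these shares and to their fall with distance. Within 50 kb on each side, ESC domains covered 28.4% and cPGC domains 0%, and within 100 kb 15.3% and 0%. All the ESC domain bases in these 100 kb outside the locus lay above it, with 18.3% of the upper 100 kb and 0% of the lower 100 kb. Within 250 kb the shares were 13.7% in ESCs and 2.96% in cPGCs, and within 1000 kb 11.0% and 4.39%.

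**Figure D5:**
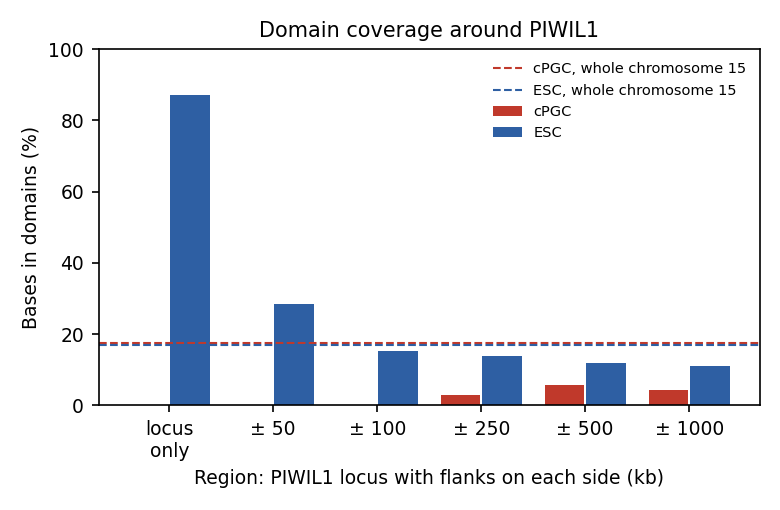
Share of bases in domains (y axis, %) of cPGCs (red) and ESCs (blue) for the *PIWIL1* locus alone and with flanks of 50 to 1000 kb on each side (x axis), with dashed lines at the values of chromosome 15. Coverage in ESCs falls from 87.3% at the locus to 11.0% with 1000 kb, and cPGC domains appear only from the flank of 250 kb, at 2.96%. Every value includes the *PIWIL1* locus and its ESC domain, so part of the fall comes from that domain.

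Beside *PIWIL1*, 8 loci of the annotation used reach into the window, and 5 of them had higher coverage in ESCs, where 24.1% of all loci and 20.2% of those on chromosome 15 did. For 2 of the 8 cPGCs had the higher coverage, against 18.7% of all loci and 8.99% on chromosome 15. An ESC domain without any cPGC domain was found at 4 of the 8, against 16.0% of all loci and 15.7% on chromosome 15. These 4 include loci that overlap each other and share ESC domains, so they are not independent. Locus length was not matched in these shares. The 8 loci ran from 5670 bp (*RAN*) to 297393 bp (*STX2*), while 55 of the 89 loci on chromosome 15 reached 10 kb. A longer locus can meet a domain more easily, so whether there is an excess in ESCs around *PIWIL1* cannot be judged from these shares and was not tested.

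Below *PIWIL1* lie 4 loci, all inside the cPGC-free stretch, so none could have a cPGC domain. A locus without one was common, with 71.1% of all loci and 85.4% of those on chromosome 15. The nearest is *RIMBP2*, which encodes a scaffold protein of the presynaptic active zone. Its locus (3240016 to 3345753) ended 2666 bp below that of *PIWIL1* and had 0% coverage in both cell types over 105738 bp. ESC domains bordered it on both sides. One of 9900 bp (3229801 to 3239700) ended 315 bp below it, and the *PIWIL1* domain began 4647 bp above it. The lower edge of the *PIWIL1* domain thus lay within *PIWIL1*, and the 4647 bp between it and *RIMBP2* held no domain. *RAN*, the GTPase of nuclear transport, was covered at 32.2% in ESCs (3200454 to 3206123) by a domain of 6300 bp that ran past its upper end. *ADGRD1*, an adhesion G protein-coupled receptor (3066200 to 3191598), was covered at 3.83%, and *STX2*, a syntaxin of membrane fusion, at 4.64%. The listed locus of *STX2* (2926091 to 3223483) contains those of *ADGRD1* and *RAN*, so its ESC bases include theirs. In the RefSeq annotation of the later assembly GRCg7b, *STX2* lies between *RAN* and *RIMBP2*.

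Above *PIWIL1* lie 4 loci, 3 of them with a cPGC domain, against 13 of the 89 loci on chromosome 15. Locus length was not matched here either. The nearest is *TMEM132D*, a gene for a transmembrane protein (ENSGALG00000002671, 3525479 to 3717176), 159873 bp away. It was covered in the opposite sense, at 24.6% in cPGCs by 6 domains and at 7.20% in ESCs by 4. The first of these 6 domains is the one that ends the cPGC-free stretch. *SLC15A4*, a lysosomal transporter of peptides and histidine (3784908 to 3805577), had 29.0% of its bases in a cPGC domain and 18.9% in an ESC domain, which lay wholly inside the former. *GLT1D1*, a predicted glycosyltransferase (3736274 to 3782357), had 0% in cPGCs and 2.60% in ESCs, from 1 domain of 1200 bp. *TMEM132C* (3832161 to 4010895, reaching beyond the window) had 2.88% in cPGCs and 22.0% in ESCs. No locus of the window other than *PIWIL1* exceeded 32.2% in ESCs. In GRCg7b, *FZD10*, a Wnt receptor, is the next protein-coding gene after *PIWIL1* and precedes *TMEM132D*. Its position on galGal5 was not used here, so the 4 ESC domains between *PIWIL1* and *TMEM132D* are not assigned to a gene.

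Of 24 genes of the piRNA pathway that were listed, 3 had a locus in the annotation used, so the pathway as a whole was not described. *GTSF1* encodes a small zinc finger protein that binds PIWI proteins and is required for their activity in mouse. Its locus on chromosome 27 (1211597 to 1223346) was covered at 71.9% in ESCs and 0.885% in cPGCs, just short of the 75% that defines the 40 loci above. Its surroundings differed from those of *PIWIL1*. A cPGC domain of 11100 bp (1200601 to 1211700) ended 104 bp inside the *GTSF1* locus. The ESC domain over the gene (1200301 to 1219800) started 300 bp before that cPGC domain and ran 8100 bp past its end, into the gene. At *GTSF1* a domain present in both cell types was thus longer in ESCs, whereas the ESC domain at *PIWIL1* overlapped no cPGC domain. A 2nd ESC domain of 6300 bp overlapped the upper end of *GTSF1* by 246 bp. *HENMT1*, the methyltransferase that protects the ends of piRNAs, had 0% in both cell types on chromosome 8 (1239574 to 1245732), with the nearest ESC domain 6273 bp and the nearest cPGC domain 8073 bp away. Of 4 Argonaute genes of the microRNA branch, *AGO1* had a locus on chromosome 23 (4198877 to 4222006), with 6.16% in ESCs and 0% in cPGCs. The 3 piRNA pathway loci thus showed 3 arrangements, and 3 genes do not describe the pathway.

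Among 1053 other named loci of at least 10 kb, those with coverage most like that of *PIWIL1* were found by the Euclidean distance between coverages in the 2 cell types, in percentage points. Among the nearest were *MYOM3*, a protein of the sarcomeric M-band (80.3% in ESCs, distance 7.01), *MRRF*, a mitochondrial ribosome recycling factor (96.2%, 8.92), and *ST6GALNAC1*, a sialyltransferase (99.1%, 11.8). These 3 genes had 0% in cPGCs, and none of them lies on chromosome 15. Their nearest cPGC domains were closer than that of *PIWIL1*, at 32.9 kb for *MYOM3*, 21.2 kb for *MRRF* and 18.1 kb for *ST6GALNAC1*. *GTSF1* followed in 6th place in this order, at a distance of 15.4. The likeness rests on 2 values per gene, and nothing on shared control or function was measured.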

How the data were processed

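Chromatin of cPGCs and ESCs was immunoprecipitated for H3K9me3, with 1 immunoprecipitated and 1 input library each. As stated in the methods of the study, the authors aligned reads to galGal5 with Bowtie 2, kept proper pairs with a mapping quality of at least 30, and compared immunoprecipitated with input reads by SICER (window 300, gap 1500) and by MACS2 in its broad mode. SICER islands far below the usual false-discovery threshold, or touched by a MACS2 peak, formed the domain list, which is limited to main autosomal scaffolds. The submitters' processing notes add bcl2fastq 2.0 and FastQC 0.11.3. The deposited positions count from 0, so 1 was added to each. Multimapping reads were removed, so coverage of repeats inside the locus may be underestimated.

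Coverage, widths and distances were computed with Python 3.11.15 with numpy 2.4.6, scipy 1.17.1 and matplotlib 3.10.9; the routines were tested on simulated lists. Shares of a chromosome refer to the bases up to its last domain. Positions and names of 1999 loci came from the study's gene table and served as annotation only. They open that table in order of Ensembl identifier; its other genes were not analysed here, nor was expression. RefSeq of GRCg7b served for gene order only, and no sequence was used, so a planned description of promoter sequences was not run. *PIWIL1*, the gene lists and the rules were chosen with earlier results of these data known. Named genes are *PIWIL1*, loci within 500 kb, listed piRNA and Argonaute genes and the 5 loci most like *PIWIL1*; others are marked in the text, and some genes that the rule selects are not reported here. Alternatives joined or filtered domains and changed locus ends, flanks and thresholds. A count was taken as unchanged within 1.5 times, and a length when equal. A share of bases was taken as unchanged inside the 95% Wilson interval of the reported one, with 300 bp taken as 1 trial. Neighbouring windows are joined into domains and are not independent, so this interval served only as a limit and measures no error.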

Additional observations from a re-analysis of the deposited data

How the results depend on the processing

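Coverage of *PIWIL1* in cPGCs remained 0% in all 5 alternatives. The width and both edges of the ESC domain were equal to the reported values when domains were joined across 3000 bp or filtered at 3000 or 5000 bp. These settings could not change either result. The nearest cPGC domain lay 199595 bp from the locus, and the ESC domain was 15000 bp wide and 13200 bp from its nearest ESC neighbour. Both results are counted among the unchanged values below. Of 68 values of the main results under an alternative, 57 were unchanged and 11 moved. Coverage of the locus in ESCs under the join and the filters rests on the same domain and could not change either. It is counted among the 57 as well. Many of the 57 values were thus fixed in advance, and their number does not measure how robust the results are. Coverage of the locus in ESCs moved to 55.2% with 5000 bp added at both ends. Neighbourhood coverage in cPGCs moved to 2.96% with 250 kb and 4.39% with 1000 kb on each side. In ESCs it moved to 13.7% with 250 kb, 10.9% with domains of at least 3000 bp and 8.52% with those of at least 5000 bp. The cPGC-free stretch measured 817800 bp with domains of at least 3000 bp and with those of at least 5000 bp, and the latter left 6 ESC domains in it. Loci with at most 10% in cPGCs numbered 86 with a limit of 50% in ESCs in place of 75%. With 90% there was 0 on chromosome 15, since *PIWIL1* itself was covered at 87.3%. Of 48 values of single neighbouring loci, 9 moved, all to a lower coverage under the filters at 3000 or 5000 bp. A filter removes domains and can only lower coverage, so this direction was fixed in advance. The alternatives for *GTSF1*, *HENMT1* and the distance to the nearest cPGC domain were chosen after seeing the data and left these values equal. Given the positions and widths of the domains concerned, joins and filters at these settings could not change them either. These values are also counted among the 57 unchanged ones.

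No paired analysis was possible because each group holds 1 sample, and leaving out a library was not an option. The lists give presence of a domain and not its height, so enrichment below the authors' threshold in cPGCs was not measured, and a difference in depth between the cell types was not tested.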

Other observations

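Other wide ESC domains that stood as far from cPGC domains as that of *PIWIL1* were looked for after its distance was seen. The 14 ESC domains at least 15000 bp wide and at least 199800 bp away lay on 9 chromosomes. The width and distance of the *PIWIL1* domain set both limits. The farthest, 28500 bp wide and 381300 bp away, overlapped *NR5A2*, a nuclear receptor gene, on chromosome 8 (1612801 to 1641300), and another on chromosome 10 overlapped *THSD4* (6324301 to 6348900, 235500 bp away). These 2 genes were named after their values were seen. The other 11 overlapped no locus of the annotation used, which holds part of the genes.

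*HENMT1* lies near the lower end of the cPGC-free stretch of 811200 bp on chromosome 8 that also holds the *NR5A2* domain. That stretch is longer than the one around *PIWIL1*, and its ESC domains covered 14.6% of it. No relation between these positions was tested.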
